A study of Homo sapiens with 12 samples.

Results

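Zinc transporters and the metallothionein MT2A were followed in 12 RNA-seq libraries of LNCaP cells. The set held 10 genes of the 34643 gene symbols in the table. It was a choice of genes from the families named below, not whole families, made with earlier results of these data known. It comprised the importers SLC39A1, SLC39A6, SLC39A7, SLC39A9 and SLC39A14 of the ZIP family, the transporters SLC30A1, SLC30A4, SLC30A5 and SLC30A7 of the ZnT family, and MT2A. All 10 passed the filter on low counts that left 15419 genes for testing, and the lowest member count in a library was 539, for SLC30A7 in shScramble DHT- replicate 2.

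LNCaP is an established, androgen-responsive human prostate cancer cell line. Each line had received lentiviral particles with an shRNA cassette (plasmid pLKO.1-puro, U6 promoter) and puromycin selection, and carried either a scrambled shRNA (shScramble) or an shRNA to TMEFF2 (shTMEFF2), the sequence of which the labels do not name. About 2.5 weeks after transduction, cells of both lines spent 24 h in medium with charcoal-stripped serum, which is depleted of androgen. They then received 10 nM dihydrotestosterone (DHT+) or ethanol vehicle (DHT-) for 24 h. The 4 groups (shScramble DHT-, shScramble DHT+, shTMEFF2 DHT- and shTMEFF2 DHT+) had 3 libraries each, from separate treatments of cells from 2 transductions. The labels do not say which library came from which transduction.

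Zinc enters the cytosol through ZIP proteins, encoded by the SLC39 genes, from outside the cell or from internal compartments. ZnT proteins, encoded by the SLC30 genes, move it the other way, out of the cell or into the Golgi and vesicles, and metallothioneins bind it in the cytosol. Prostate epithelium is known for its high zinc content, which is lower in prostate cancer, and zinc excess induces metallothioneins and SLC30A1 through the transcription factor MTF1. RNA levels alone were measured here, not zinc or protein.

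Levels are given as CPM, counts scaled to a common library size after TMM normalization. TMEFF2, the target of the shRNA, ranged from 73.8 to 103 CPM in shScramble DHT- and from 39.3 to 81.7 CPM in shTMEFF2 DHT-. With DHT it ranged from 117 to 173 CPM in shScramble and from 90.1 to 142 CPM in shTMEFF2. The ranges overlapped at both DHT levels, and the line differences of -0.43 and -0.41 on the log2 scale did not pass edgeR's quasi-likelihood test (Benjamini-Hochberg adjusted p = 0.50 and 0.30). The total count per library was 19450866 to 22612046. The 6 LNCaP markers KLK3, FOLH1, HOXB13, KRT8, KRT18 and TMPRSS2 were detected, and their summed level was 5835 to 5969 CPM in shScramble DHT-, 11595 to 13092 CPM in shScramble DHT+, 3769.97 to 4351 CPM in shTMEFF2 DHT- and 4497 to 5796 CPM in shTMEFF2 DHT+. Of 5 markers of other cell types, KRT5 was at 0 in every library, TP63 had at most 9 counts, and the summed level of the list was 24.3 to 25.2 CPM in shScramble DHT-, 16.2 to 18.0 CPM in shScramble DHT+, 27.8 to 40.0 CPM in shTMEFF2 DHT- and 19.7 to 24.7 CPM in shTMEFF2 DHT+. The fibroblast marker COL1A1 made up most of it and was lower with DHT in both lines, by edgeR, at -0.61 and -0.68 on the log2 scale (adjusted p = 0.0034 and 0.0044). The leukocyte marker PTPRC was lower with DHT in shScramble (-0.59, edgeR adjusted p = 0.034) and higher in shTMEFF2 at DHT+ (0.65, adjusted p = 0.033). Among the LNCaP markers, edgeR put KLK3 lower in shTMEFF2 at DHT- and DHT+ (-2.43 and -1.94, adjusted p = 2.8e-04 and 8.3e-05). At DHT+ KRT8, KRT18 and TMPRSS2 were lower too (-1.36, -1.12 and -2.22, edgeR adjusted p = 1.9e-06, 9.0e-07 and 0.0075). FOLH1 was higher there (0.33, edgeR adjusted p = 3.5e-04), and HOXB13 passed at neither DHT level. The marker sums moved with the groups compared below, and the part of the markers in the results was not tested. In bulk RNA, fewer cells of a type and less RNA per cell cannot be told apart.

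With DHT, the importers SLC39A7, SLC39A6 and SLC39A1 and the Golgi transporter SLC30A7 rose in shScramble cells and the vesicle transporter SLC30A4 fell. In shTMEFF2 cells SLC39A6 rose and SLC30A4 fell. The fold rule used here asked for a 1.5-fold difference or more together with an adjusted p no higher than 0.05, by edgeR's quasi-likelihood test over all 15419 genes. With it, 3 of the 10 genes were higher in shScramble DHT+ (SLC39A7, SLC39A6 and SLC30A7), where 5.45% of all tested genes were, and 0 were lower, where 6.45% of all were. By adjusted p alone 4 were higher and 1 was lower, beside 14.4% and 12.6% of all tested genes. The median log2 fold change of the 10 was 0.26, against -0.01 over all tested genes.

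In shTMEFF2 cells the fold rule called 0 of the 10 genes in either direction with edgeR, beside 3.28% of all genes called higher and 1.6% called lower. DESeq2 and limma-voom also called 0, and 4 of the 10 had an unadjusted edgeR p under 0.05. By adjusted p alone 1 gene was higher and 1 was lower, beside 7.84% and 5.21% of all tested genes. The median log2 fold change of the 10 was 0.08, against -0.02 over all genes.

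**Figure D1:**
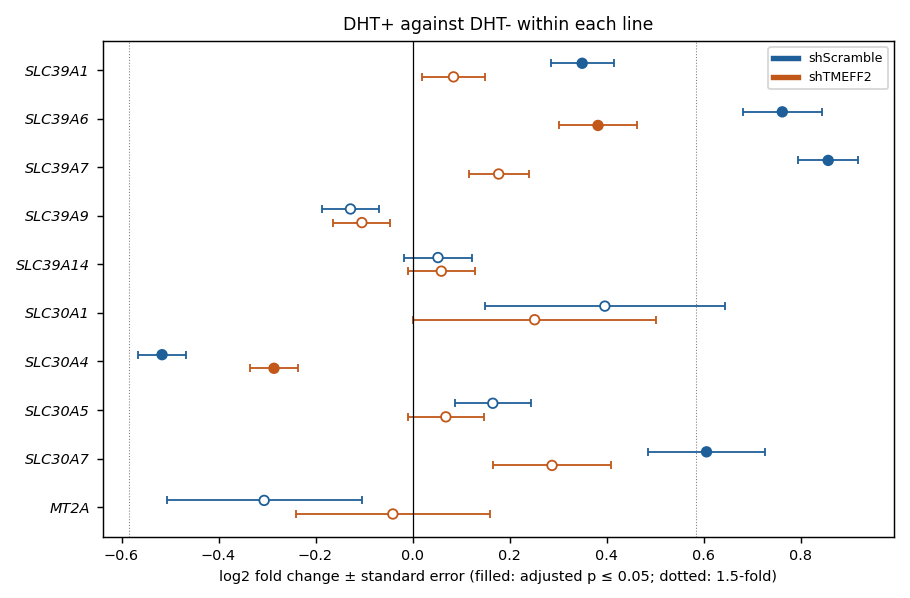
The log2 fold change with DHT (x axis, DHT+ over DHT-, bars are standard errors, 3 libraries a group) is drawn for each of the 10 genes in shScramble (blue) and shTMEFF2 (orange) cells, filled where the adjusted p was at most 0.05, with dotted lines at a fold of 1.5. SLC39A7 lies at 0.86 in shScramble and 0.18 in shTMEFF2, and SLC30A4 lies below 0 in both.

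Between the lines, SLC30A4 was lower in shTMEFF2 at both DHT levels, and SLC39A7, SLC39A6 and SLC39A14 were lower at DHT+. At DHT- the fold rule called 0 of the 10 genes with edgeR, beside 0.298% of all genes called higher and 0.272% called lower in shTMEFF2. DESeq2 and limma-voom called 0 as well, and 2 of the 10 had an unadjusted edgeR p under 0.05. By adjusted p alone, SLC30A4 was lower and 0 genes were higher, beside 0.493% and 0.623% of all genes.

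At DHT+, SLC39A7 alone passed the fold rule and was lower in shTMEFF2, beside 3.74% of all genes called lower, and 0 were higher, beside 3.03% of all. By adjusted p alone 4 of the 10 were lower (SLC39A7, SLC39A6, SLC39A14 and SLC30A4), beside 9.09% of all tested genes, and 0 were higher, beside 6.93% of all. The estimate was below 0 for 9 of the 10 genes at DHT+ and for 6 of the 10 at DHT-, beside 7610 and 7854 of the 15419 tested genes. The median log2 fold change was -0.21 at DHT+, against 0.00 over all genes, and -0.11 at DHT-, against a value over all genes within 0.01 of 0. With library totals alone in place of TMM, the share of all calls at DHT+ that were higher was 57.0% instead of 44.7%. The comparisons share libraries, since shScramble DHT+ enters both its DHT response and the line difference at DHT+, so their values are not independent.

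Whether the 2 lines answered DHT differently was judged by the adjusted p of the interaction alone. This test was passed by SLC39A7, which rose less in shTMEFF2 (a difference, shTMEFF2 minus shScramble, below 0), and by 0 of the 10 genes with a difference above 0. Over all tested genes, 3.29% passed with a difference below 0 and 1.65% with one above 0. A gene that DHT lowered less in shTMEFF2 also has a difference above 0. The share of these calls that were above 0 was 33.4%, or 48.2% with library totals alone. The median difference was -0.12 on the log2 scale for the 10 genes and 0.01 for all.

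**Figure D2:**
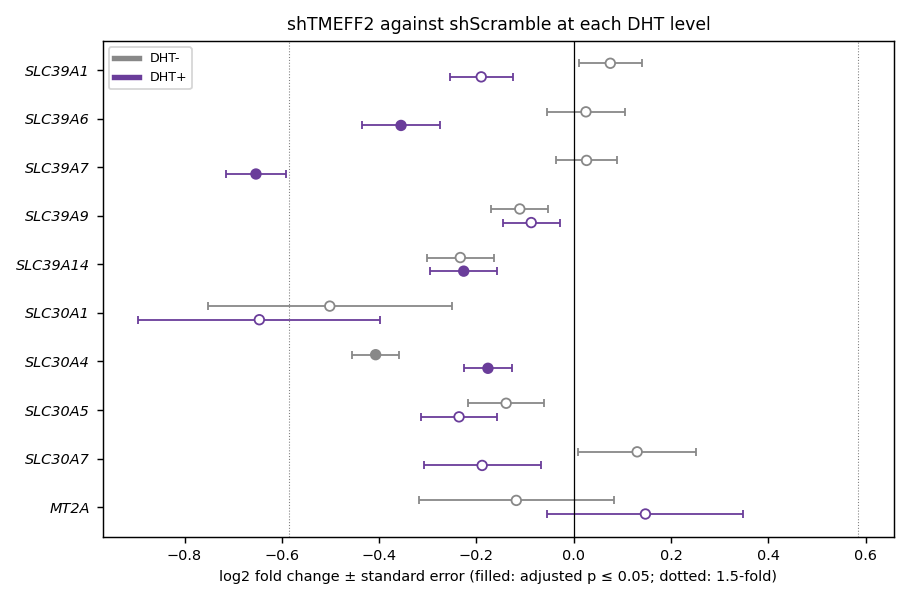
The log2 fold change of shTMEFF2 over shScramble (x axis, bars are standard errors, 3 libraries a group) is drawn for each of the 10 genes at DHT- (grey) and DHT+ (purple), filled where the adjusted p was at most 0.05. SLC39A7 and SLC39A6 lie near 0 at DHT-, at 0.03 and 0.02, and at -0.65 and -0.36 at DHT+.

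SLC39A7 (ENSG00000112473, GRCh38 chr6:33200305-33204439, plus strand) encodes ZIP7, which releases zinc from the endoplasmic reticulum and Golgi into the cytosol. Its level was 157, 171 and 165 CPM in the 3 shScramble DHT- libraries and 321, 283 and 288 CPM in shScramble DHT+. In shTMEFF2 it was 165, 170.1 and 167 CPM without DHT and 182, 198 and 187 CPM with DHT. All 3 shScramble DHT+ libraries lay above the 9 others, the shTMEFF2 DHT+ libraries lay above both DHT- groups without overlap, and the DHT- groups overlapped. The rise with DHT was 0.86 on the log2 scale in shScramble (SE 0.062, fold 1.81, edgeR quasi-likelihood Benjamini-Hochberg adjusted p = 1.0e-06). In shTMEFF2 the estimate was 0.18 (SE 0.062, adjusted p = 0.081), which did not pass with edgeR and passed with DESeq2 at 0.19 (adjusted p = 0.034). At DHT+ the level was lower in shTMEFF2, with a log2 fold change of -0.65 (SE 0.062, adjusted p = 2.0e-05). The DHT responses differed by -0.68 (SE 0.088, edgeR adjusted p = 9.5e-04), or -0.71 to -0.61 when each of the 12 libraries was left out in turn. The gene overlaps RXRB on the other strand, and whether counting used strand is not given in the sources used here, so its counts are uncertain to that extent.

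SLC39A6 (ENSG00000141424, chr18:36108531-36129385, minus strand) encodes ZIP6, a plasma membrane importer also known as the estrogen-responsive gene LIV-1. Its level was 324, 305 and 271 CPM in shScramble DHT- and 567, 502 and 456 CPM in shScramble DHT+. The shTMEFF2 libraries had 314, 306 and 294 CPM at DHT- and 396, 403 and 394 CPM at DHT+. Both lines separated by DHT without overlap, the shScramble DHT+ libraries were the highest, and the DHT- groups overlapped. With DHT it rose by 0.76 on the log2 scale in shScramble (SE 0.081, fold 1.70, edgeR adjusted p = 2.3e-05) and by 0.38 (SE 0.081, adjusted p = 0.0090) in shTMEFF2. The difference of these responses, -0.38, did not pass (SE 0.11, edgeR adjusted p = 0.081), but passed without shScramble DHT+ replicate 3 at -0.45 (adjusted p = 0.037) and with DESeq2 at -0.37 (adjusted p = 0.035). With a replicate block in the edgeR fit the difference passed too, at -0.38 (adjusted p = 0.021). At DHT+ SLC39A6 was lower in shTMEFF2 by edgeR, with a log2 fold change of -0.36 (SE 0.080, adjusted p = 0.0098). Without shScramble DHT+ replicate 1, the highest library, that value was -0.26 and no longer passed (adjusted p = 0.052). In the 8 libraries outside replicate 2, the calls with DHT in shTMEFF2 and between the lines at DHT+ were lost too, at values of 0.39 (adjusted p = 0.15) and -0.36 (adjusted p = 0.12) that were no smaller. The span of SLC39A6 overlaps a long noncoding RNA gene on its own strand, so part of its count may be uncertain.

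SLC39A1 (ENSG00000143570, chr1:153959099-153968184, minus strand) encodes ZIP1, a widely expressed plasma membrane importer that has been studied as a zinc uptake carrier of prostate cells. It measured 82.6, 90.0 and 79.0 CPM in shScramble DHT- and 109, 109 and 103 CPM in shScramble DHT+, 2 groups that did not overlap. In shTMEFF2 it measured 83.7, 90.4 and 90.9 CPM at DHT- and 90.4, 97.2 and 93.4 CPM at DHT+, and those groups overlapped. The rise in shScramble was 0.35 on the log2 scale (SE 0.065, fold 1.27, edgeR adjusted p = 0.0016), below the fold limit. The shTMEFF2 response was 0.08 (SE 0.065, adjusted p = 0.45) and the difference of responses -0.27 (SE 0.092, adjusted p = 0.14), neither of which passed. At DHT+ the shTMEFF2 libraries lay below those of shScramble without overlap, at a log2 fold change of -0.19 that did not pass the edgeR test (adjusted p = 0.065) and passed with DESeq2 (adjusted p = 0.046). The locus overlaps 5 other annotated genes, among them CREB3L4 on the other strand and another protein-coding gene on its own strand, so its counts are uncertain.

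SLC39A9 (ENSG00000029364, chr14:69398015-69462390, plus strand) encodes ZIP9, a zinc transporter of the Golgi and plasma membrane. Its level was 199 ± 5.10 CPM in shScramble DHT- and 182 ± 9.79 CPM in shScramble DHT+ (mean ± SD, n = 3). In shTMEFF2 it was 184 ± 8.70 CPM at DHT- and 172 ± 5.07 CPM at DHT+. SLC39A9 passed in none of the 5 edgeR comparisons, and its log2 estimates lay between -0.13 and 0.02. The shScramble groups did not overlap, and the lowest adjusted p of the gene was 0.13, for DHT in shScramble. With library totals alone in place of TMM that response was -0.20 and passed (edgeR adjusted p = 0.016). It overlaps ERH on the other strand.

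SLC39A14 (ENSG00000104635, chr8:22367278-22434129, plus strand) encodes ZIP14, a metal importer that carries zinc, iron and manganese. It measured 128, 132 and 114 CPM in shScramble DHT- and 139.8, 123 and 126 CPM in shScramble DHT+. The shTMEFF2 libraries measured 103, 105 and 111 CPM at DHT- and 109.7, 111 and 112 CPM at DHT+. DHT left the groups overlapping within both lines, while the 6 shTMEFF2 libraries all lay below the 6 shScramble libraries. The line difference passed at DHT+, with a log2 fold change of -0.23 (SE 0.069, adjusted p = 0.043) in edgeR. The estimate at DHT- was of the same size, -0.23, and did not pass (adjusted p = 0.14). The call at DHT+ was lost without any 1 of 10 of the 12 libraries, with adjusted p of 0.053 to 0.19, and was kept without shScramble DHT- replicate 2 or 3.

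**Figure D3:**
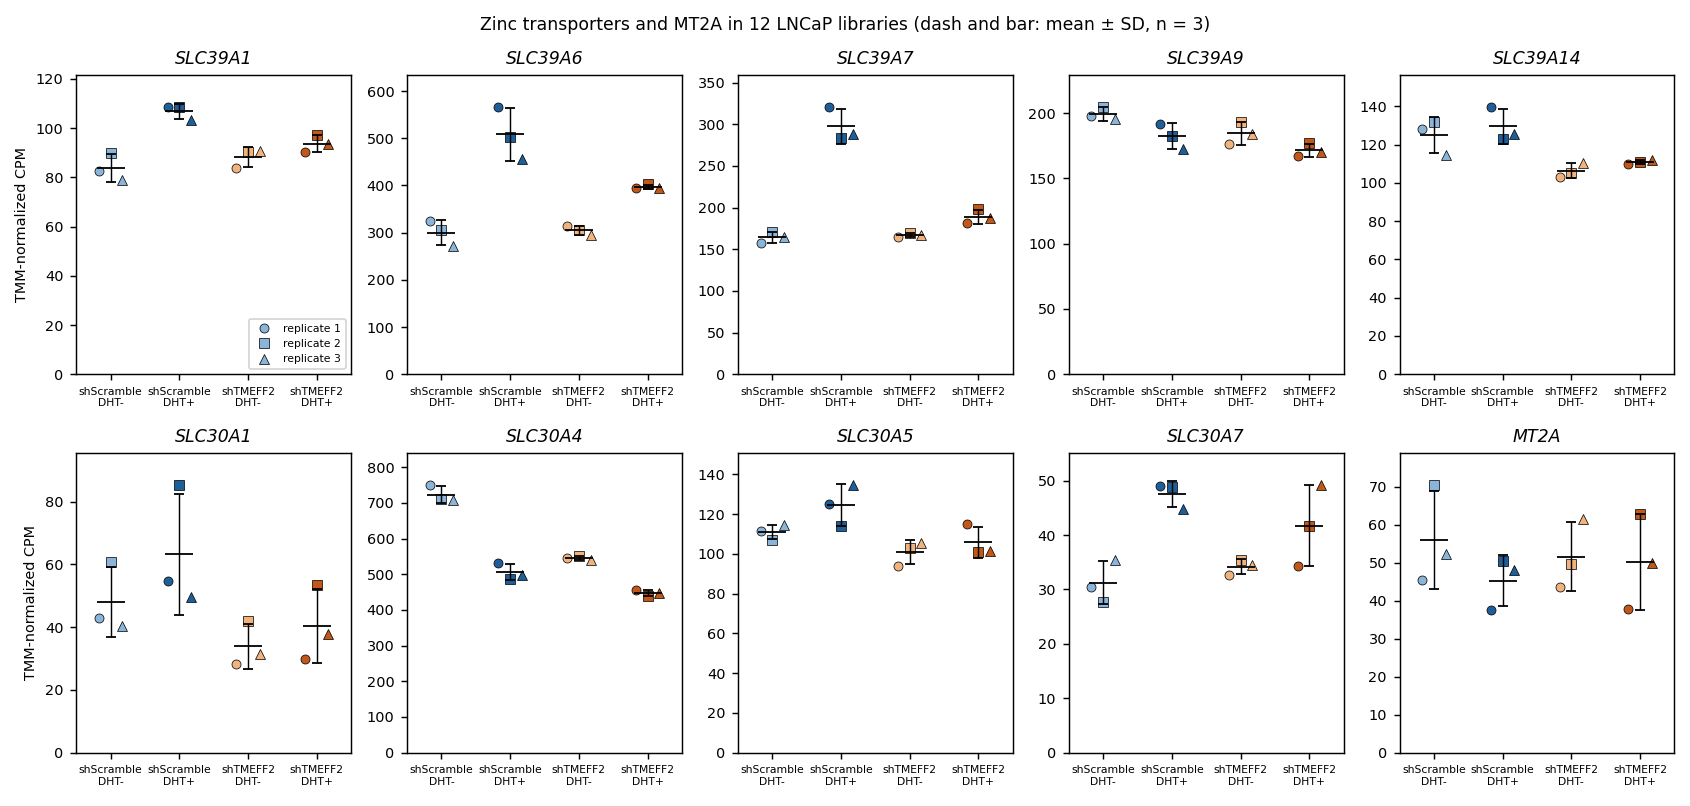
TMM-normalized CPM (y axis, from 0, 1 panel per gene) of the 10 genes in each of the 12 libraries, by group, with the replicate shown by the symbol and the mean ± SD of 3 libraries by the dash and bar. SLC39A7 and SLC39A6 are highest in shScramble DHT+, SLC30A4 is highest in shScramble DHT- at 723 ± 23.5 CPM, and SLC30A1 has its highest library in replicate 2 of each group.

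SLC30A4 (ENSG00000104154, chr15:45479606-45522755, minus strand) encodes ZnT4, which loads zinc into endosomal and secretory vesicles. It measured 750.4, 711 and 708 CPM in shScramble DHT- and 530.2, 487 and 499 CPM in shScramble DHT+. In shTMEFF2 it measured 546, 549.8 and 541 CPM at DHT- and 456, 439 and 447 CPM at DHT+. The 4 groups did not overlap one another, with shScramble DHT- the highest, then shTMEFF2 DHT-, then shScramble DHT+, and shTMEFF2 DHT+ the lowest. With DHT the log2 fold change was -0.52 in shScramble (SE 0.049, fold 0.699, edgeR adjusted p = 8.4e-06). In shTMEFF2 it was -0.29 (SE 0.049, fold 0.820, edgeR adjusted p = 0.0030). Neither reached the fold limit.

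Set against shScramble, SLC30A4 was lower in shTMEFF2 with and without DHT. The edgeR test put it lower in shTMEFF2 at DHT-, with a log2 fold change of -0.41 (SE 0.049, adjusted p = 0.0017), and at DHT+, with -0.18 (SE 0.049, adjusted p = 0.027). The difference of its DHT responses was 0.23 (SE 0.069, adjusted p = 0.079) and did not pass in the main edgeR fit, but passed with DESeq2 (adjusted p = 0.0097). With edgeR it passed under 3 other settings. These were a filter at a mean above 5 CPM (adjusted p = 0.042), library totals alone in place of TMM (0.020) and a replicate block (0.037). The call at DHT+ was lost without shScramble DHT- replicate 3 (adjusted p = 0.0501), shScramble DHT+ replicate 1 (0.13), shTMEFF2 DHT+ replicate 2 (0.11) or shTMEFF2 DHT+ replicate 3 (0.096). The log2 value then lay between -0.16 and -0.13. In the 8 libraries outside replicate 2, SLC30A4 kept its call with DHT in shScramble and lost the others at values near the full ones, with DHT in shTMEFF2 at -0.26 (adjusted p = 0.10) and between the lines at -0.42 without DHT (adjusted p = 0.17) and -0.18 with DHT (adjusted p = 0.16). The span of SLC30A4 overlaps SLC30A4-AS1 and a pseudogene on the other strand, so part of its count may be uncertain. Overlap of exons was not examined.

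SLC30A7 (ENSG00000162695, chr1:100896076-100981757, plus strand) encodes ZnT7, which supplies zinc to enzymes in the early secretory pathway. It measured 30.5, 27.7 and 35.5 CPM in shScramble DHT- and 49.0, 48.8 and 44.9 CPM in shScramble DHT+, without overlap. In shTMEFF2 it measured 32.6, 35.4 and 34.5 CPM at DHT- and 34.3, 41.7 and 49.2 CPM at DHT+, with overlap and the widest spread of the 4 groups. Its rise in shScramble was 0.61 on the log2 scale (SE 0.12, edgeR adjusted p = 0.0026), a fold of 1.52 that lay just past the limit. Without shScramble DHT- replicate 2 the log2 value was 0.53 and without shScramble DHT+ replicate 1 it was 0.58, both under the fold limit, with adjusted p of 0.014 and 0.012. In the 8 libraries outside replicate 2 the call was lost at 0.51 (adjusted p = 0.084). In shTMEFF2 the response of 0.29 (SE 0.12, adjusted p = 0.14) did not pass, and it passed without shTMEFF2 DHT+ replicate 1, the lowest of its group, at 0.41 (adjusted p = 0.029). The difference of the responses, -0.32, did not pass (edgeR adjusted p = 0.37).

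SLC30A5 (ENSG00000145740, chr5:69093991-69131069, plus strand) encodes ZnT5, a Golgi transporter that pairs with ZnT6, the product of SLC30A6. Its level was 111 ± 3.70 CPM in shScramble DHT- and 125 ± 10.4 CPM in shScramble DHT+ (mean ± SD, n = 3). In shTMEFF2 it was 101 ± 6.11 CPM at DHT- and 105.8 ± 8.0 CPM at DHT+. SLC30A5 passed in none of the 5 edgeR comparisons. Its lowest adjusted p was 0.058, for the line difference of -0.24 on the log2 scale at DHT+. That difference passed with DESeq2, at -0.23 (adjusted p = 0.032), without shScramble DHT+ replicate 2, at -0.28 (adjusted p = 0.037) and without shTMEFF2 DHT+ replicate 1, at -0.30 (adjusted p = 0.036).

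SLC30A1 (ENSG00000170385, chr1:211571568-211579161, minus strand) encodes ZnT1, the plasma membrane exporter of zinc. It measured 42.9, 60.9 and 40.2 CPM in shScramble DHT- and 54.7, 85.3 and 49.4 CPM in shScramble DHT+. In shTMEFF2 it measured 28.3, 41.9 and 31.3 CPM at DHT- and 30.0, 53.3 and 37.8 CPM at DHT+. Replicate 2 was the highest library in all 4 groups, a pattern shared by 329 of the 15419 tested genes (2.13%), and the groups of every comparison overlapped. With DHT the log2 estimate was 0.40 (SE 0.25, adjusted p = 0.26) in shScramble and 0.25 (SE 0.25, adjusted p = 0.57) in shTMEFF2, and edgeR passed neither. The log2 estimate for shTMEFF2 against shScramble was -0.50 (SE 0.25, adjusted p = 0.41) at DHT- and -0.65 (SE 0.25, adjusted p = 0.099) at DHT+, and neither passed. Single libraries moved these values both ways. Without shTMEFF2 DHT+ replicate 2 the value at DHT+ was -0.88 and passed (edgeR adjusted p = 0.046), and without shScramble DHT+ replicate 2 it was -0.36 (adjusted p = 0.39). The estimate for DHT in shScramble was 0.12 without shScramble DHT+ replicate 2 and 0.60 without shScramble DHT- replicate 2. Taking replicate 2 out of every group was a choice made after seeing the data. With the 8 libraries left, the value at DHT+ was -0.61 (edgeR adjusted p = 0.029). With a replicate block in the fit, SLC30A1 passed for DHT in shScramble (0.38, edgeR adjusted p = 0.0094). The gene also passed between the lines at DHT- (-0.50, adjusted p = 0.023) and DHT+ (-0.64, adjusted p = 7.3e-04). Whether the replicate numbers pair the libraries is not given by the labels.

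MT2A (ENSG00000125148, chr16:56608584-56609497, plus strand) encodes the most widely expressed metallothionein, a small cysteine-rich protein that binds zinc and copper. It measured 45.4, 70.5 and 52.3 CPM in shScramble DHT- and 37.6, 50.3 and 48.0 CPM in shScramble DHT+. In shTMEFF2 it measured 43.6, 49.8 and 61.5 CPM at DHT- and 37.7, 62.9 and 50.0 CPM at DHT+. The 4 groups overlapped, and the libraries of a group differed by more than the group means did. MT2A passed in none of the 5 edgeR comparisons, with log2 estimates from -0.31 (SE 0.20, DHT in shScramble) to 0.27 (SE 0.28, the difference of responses) and adjusted p from 0.29 to 0.93.

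The metallothionein genes are close paralogs, so the split of reads among them is uncertain, and their sum was taken as well. Over the 11 metallothionein genes it was 88.1, 123.8 and 98.3 CPM in shScramble DHT- and 79.9, 102.5 and 93.4 CPM in shScramble DHT+. In shTMEFF2 the sum was 86.4, 101.7 and 112.4 CPM at DHT- and 77.4, 119.1 and 95.9 CPM at DHT+. The 4 groups of sums overlapped as those of MT2A did. Of the 11 genes, 6 had at most 3 counts in every library. MT2A made up 47.1% to 57.0% of the sum in a library.

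MT2A, SLC30A1 and SLC30A4 were chosen to show the promoter sequence because the first and second are the textbook targets of the zinc-sensing factor MTF1 and the third moved with DHT in both lines. Each sequence is the 250 bases before the annotated start, from RefSeq on GRCh38.p14, read 5′ to 3′ along the gene's strand. They lie at chr16:56608334-56608583 (plus strand), chr1:211579162-211579411 (minus strand) and chr15:45522756-45523005 (minus strand). Capitals mark the core of the metal response element, TGCACNC or TGCGCNC, on either strand.
MT2A: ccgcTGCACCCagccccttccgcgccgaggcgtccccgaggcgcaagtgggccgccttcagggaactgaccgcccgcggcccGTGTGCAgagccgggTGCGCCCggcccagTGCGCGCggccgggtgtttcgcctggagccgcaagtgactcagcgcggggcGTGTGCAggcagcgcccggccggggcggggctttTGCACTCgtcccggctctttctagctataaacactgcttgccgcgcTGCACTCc
SLC30A1: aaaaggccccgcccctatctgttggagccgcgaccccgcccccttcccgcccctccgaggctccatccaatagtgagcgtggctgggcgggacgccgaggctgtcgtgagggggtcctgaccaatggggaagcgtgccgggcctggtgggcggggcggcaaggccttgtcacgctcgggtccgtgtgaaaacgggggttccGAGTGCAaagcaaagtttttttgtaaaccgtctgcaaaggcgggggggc
SLC30A4: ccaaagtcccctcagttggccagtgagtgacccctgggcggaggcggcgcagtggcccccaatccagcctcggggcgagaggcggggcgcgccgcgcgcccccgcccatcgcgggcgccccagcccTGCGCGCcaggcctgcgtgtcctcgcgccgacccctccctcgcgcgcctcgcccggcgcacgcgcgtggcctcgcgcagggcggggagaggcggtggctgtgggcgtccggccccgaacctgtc
The MT2A window held 7 matches to the core, none of them overlapping, and those of SLC30A1 and SLC30A4 held 1 each. Of 35114 windows of the same length before gene starts, 24.8% held at least 1 match and 11 windows (0.031%) held 7 or more. The letters AGAACA, searched as an androgen half-site, had 0 matches in each window shown, and 12.4% of the 35114 windows held at least 1. Windows of other members, not shown, were searched too, and all of them overlapped an annotated exon. Among these, AGAACA had 1 match in a window of SLC39A1 and 1 in that of SLC30A5. The metal response core had 1 match in another window of SLC39A1 and 1 in that of SLC39A6. Those of SLC30A7, SLC39A7 and SLC39A9 had 0 matches to either. A match describes the letters of the window and was not tested for binding. In the edgeR fit of all libraries without a replicate block, MT2A and SLC30A1 passed in none of the comparisons, and SLC30A4 passed in 4 of the 5. Promoter entries were found for 9 of the 10 genes, and SLC39A14 was not among them.

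The other zinc handling genes were counted as a family list of 27, of which 17 passed the filter on low counts. They comprised 9 importers of the ZIP family (6 tested), 6 ZnT genes (6 tested), 10 metallothioneins (3 tested) and 2 further genes, MTF1 and TMEM163 (2 tested). By adjusted p alone 5 were higher and 1 was lower with DHT in shScramble by edgeR, beside 14.4% and 12.6% of all tested genes. With DHT in shTMEFF2 0 passed by edgeR, 1 by DESeq2 and 0 by limma-voom, and 3 had an unadjusted edgeR p under 0.05, beside 7.84% of all genes higher and 5.21% lower. The same counts held between the lines at DHT-, beside 0.623% of all genes higher and 0.493% lower. At DHT+ 2 were higher and 2 lower in shTMEFF2, beside 6.93% and 9.09% of all. The difference of responses was passed by 1, with a value below 0, as it was by 3.29% of all genes. The median log2 DHT response of these 17 was 0.21 in shScramble and 0.02 in shTMEFF2, against -0.01 and -0.02 over all tested genes.

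The 1 gene whose responses differed was SLC39A10, which encodes ZIP10 and is the closest relative of SLC39A6. It measured 79.2, 77.1 and 76.3 CPM in shScramble DHT- and 117, 134 and 125 CPM in shScramble DHT+, and 58.9, 57.5 and 68.2 and 72.7, 66.4 and 77.6 CPM in the same order in shTMEFF2. All 3 shScramble DHT+ libraries lay above the 9 others. It rose with DHT in shScramble by 0.69 (SE 0.082, adjusted p = 5.5e-05) on the log2 scale, was lower in shTMEFF2 at DHT+ at -0.79 (SE 0.082, adjusted p = 3.8e-05), and its responses differed by -0.46 (SE 0.12, adjusted p = 0.040), all by edgeR. SLC39A11 (ZIP11) rose with DHT in shScramble by 0.41 (edgeR adjusted p = 0.0039) and was lower in shTMEFF2 at DHT+ (-0.42, adjusted p = 0.0063). The importer genes SLC39A3 and SLC39A4 and the ZnT5 partner SLC30A6 also rose with DHT in shScramble, by 0.39, 0.39 and 0.36 (edgeR adjusted p = 0.027, 0.024 and 0.0084).

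Among these other genes, SLC30A10 and SLC39A8 were higher in shTMEFF2 at DHT+. SLC30A10, whose product exports manganese, was at a low level of 3.30, 4.42 and 3.92 CPM in shScramble DHT- and 0.252, 1.22 and 0.800 CPM in shScramble DHT+, where it had 5, 25 and 16 counts. In shTMEFF2 it was 4.62, 7.26 and 4.50 CPM at DHT- and 4.21, 4.52 and 3.03 CPM at DHT+, and the shScramble DHT+ libraries lay below the 9 others. It fell with DHT in shScramble, with a log2 fold change of -2.34 (SE 0.39, adjusted p = 7.2e-04) by edgeR, and was higher in shTMEFF2 at DHT+ by 2.36 (SE 0.39, adjusted p = 0.0013). The difference of its responses, 1.86, did not pass (edgeR adjusted p = 0.057). SLC39A8, which encodes the zinc and manganese importer ZIP8, was 42.4 ± 9.03 CPM in shScramble DHT+ and 63.0 ± 8.98 CPM in shTMEFF2 DHT+ (mean ± SD, n = 3), a log2 fold change of 0.57 (SE 0.14, adjusted p = 0.018) by edgeR.

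**Figure D4:**
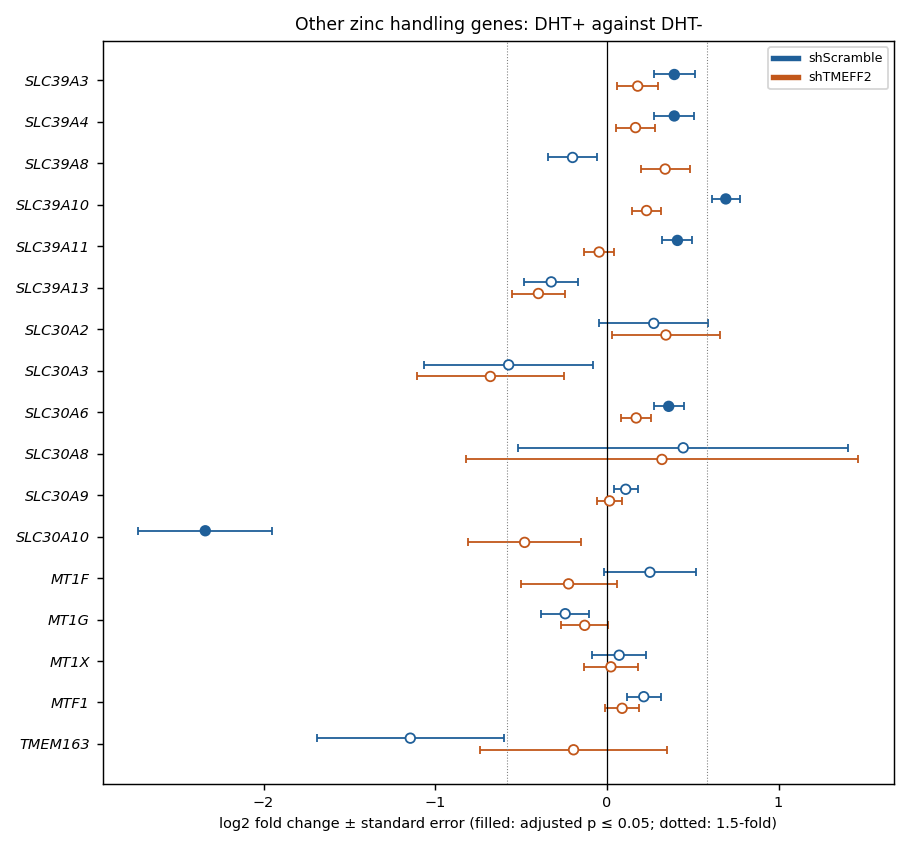
The log2 fold change with DHT (x axis, DHT+ over DHT-, bars are standard errors, 3 libraries a group) is drawn for the 17 other zinc handling genes that passed the filter, in shScramble (blue) and shTMEFF2 (orange) cells, filled where the adjusted p was at most 0.05. In shScramble 5 filled points lie above 0 and SLC30A10 lies at -2.34, and no shTMEFF2 point is filled.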

How the data were processed

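Raw 75 bp paired-end reads were checked with FastQC and trimmed with Trimmomatic by the authors, who quantified transcripts with kallisto 0.42.3 on GRCh38 and tested with DESeq2. They deposited estimated counts per gene, scaled by library size and mean transcript length, so the values need not be whole and a switch between transcripts does not by itself change a gene's count. Of the 24 columns, 0 could not be assigned to a library, and the 2 columns of a library, taken as repeat runs, were summed and rounded.

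Testing used R 4.3.3 with edgeR 4.0.16: TMM, filterByExpr (minimum count 10, minimum total 15), all 12 libraries in 1 fit with 1 coefficient per group, and the quasi-likelihood test, its p-values adjusted by Benjamini-Hochberg for the 15419 genes. Standard errors were derived from the log2 fold change and the test's F statistic. Levels are TMM-normalized CPM. Depth was 19450866 to 22612046 counts a library, and the common biological coefficient of variation was 0.131. P-values measure the spread between these libraries. The libraries came from 2 transductions that the labels do not assign, so p-values between the lines do not measure the spread between transductions. Alternatives were DESeq2 1.42.0, limma-voom (limma 3.58.1), other scalings and filters, separate fits, a replicate block, 1 column per library, 8 libraries without replicate 2 and each library left out, of which the single columns and the 8 libraries were chosen after seeing the data. Positions are from GENCODE v44, and the overlaps named are of gene spans, not of exons. SLC39A14, SLC30A5 and SLC30A7 also overlap a pseudogene or a noncoding RNA gene on the other strand.

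The genes named are the 10 members, TMEFF2, the cell type markers (some of them are not reported here) and, of a list of other zinc handling genes set by family, those that passed in a comparison or have their levels described. Members and lists were chosen with earlier results of these data known.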

Additional observations from a re-analysis of the deposited data

Results flagged for a closer look

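The DHT response of SLC39A7 differed between the lines by -0.68 on the log2 scale (SE 0.088, edgeR quasi-likelihood interaction, Benjamini-Hochberg adjusted p = 9.5e-04). It is listed here because the difference between the 2 responses passed its own test: the response was 0.86 in shScramble cells, where all 3 DHT+ libraries lay above the 3 DHT- libraries, and 0.18 in shTMEFF2 cells, where the groups also did not overlap. Among the 6 LNCaP markers, the differences of the keratin genes KRT8 and KRT18 were also below 0, at -1.49 and -1.07 (edgeR adjusted p = 8.4e-05 and 8.6e-05). That of FOLH1 was above 0, at 0.50 (edgeR adjusted p = 8.7e-04). FOLH1 fell with DHT in both lines, and by less in shTMEFF2 (-0.38) than in shScramble (-0.88). The differences of KLK3 (0.49), HOXB13 (0.03) and TMPRSS2 (-2.27) did not pass, and the part of these genes in the SLC39A7 result was not tested.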

How the results depend on the processing

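Of the 1140 alternative values of the 10 genes, 1060 kept their direction and side of the threshold, 32 lost and 22 gained the adjusted p, and 26, none of a called value, changed sign. The difference of the SLC39A7 responses kept its call in every alternative. The labels do not say whether the replicate numbers pair the libraries. Deviations of same-numbered libraries from their group means correlated at -0.0017 to 0.169, above 0.1 in 3 of 12 pairs. These values do not settle the pairing. A replicate block left 43 of 50 calls as they were and added 7, among them SLC30A1 for DHT in shScramble (0.38 on the log2 scale, edgeR adjusted p = 0.0094) and between the lines at DHT- (-0.50, adjusted p = 0.023) and DHT+ (-0.64, adjusted p = 7.3e-04).

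Counts of the 10 genes by adjusted p alone moved as follows, and the cause was not tested. Between the lines at DHT+ the 4 genes became 2 with no filter, with library totals alone, with the 6 libraries of the comparison only, with the first columns and with the 8 libraries outside replicate 2, became 7 with the replicate block, and ranged from 1 (without shScramble DHT+ replicate 1) to 4 with 1 library left out. They became 6 with DESeq2, and 3 with DESeq2 size factors and with the second columns. At DHT- 1 gene became 2 with the block and 0 with the 8 libraries. For DHT in shTMEFF2, 2 became 0 with the 8 libraries and 3 with DESeq2 and with the second columns, and ranged from 2 to 3 with 1 library left out. For DHT in shScramble 5 became 6 with library totals alone, which added SLC39A9, and 6 with the block, which added SLC30A1. With the 8 libraries it became 4. The difference of responses went from 1 to 3 with DESeq2 and with the block, to 2 with the 5 CPM filter and with library totals alone, and ranged from 1 to 2 with 1 library left out. By the fold rule at DHT+, 1 gene became 2 with the block and with the 8 libraries, and 1 to 2 with 1 library left out. By the same rule for DHT in shScramble, 3 genes became 2 with the 5 CPM filter, the second columns and the 8 libraries. That count was 2 to 3 with 1 library left out.

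Values not called that changed sign, on the log2 scale, were SLC39A14 with DHT in shScramble (-0.016, library totals alone), SLC30A5 with DHT in shTMEFF2 (-0.00034, first columns), SLC39A7 between the lines at DHT- (-0.0035, first columns), the SLC30A5 difference of responses (0.024, second columns) and, with the 8 libraries, MT2A between the lines at DHT- (0.11) and the differences of responses of SLC39A14 (-0.069) and MT2A (-0.060). With 1 library left out, the ranges that crossed 0 were -0.0087 to 0.094 for SLC39A14 with DHT in shScramble, -0.22 to 0.13 for MT2A with DHT in shTMEFF2, -0.037 to 0.084 for SLC39A6 between the lines at DHT-, -0.0035 to 0.055 for SLC39A7 between the lines at DHT-, -0.26 to 0.080 for MT2A between the lines at DHT-, -0.034 to 0.32 for MT2A between the lines at DHT+, -0.015 to 0.071 for SLC39A9 in the difference of responses, -0.034 to 0.074 for SLC39A14 in the difference of responses and -0.39 to 0.14 for SLC30A1 in the difference of responses.

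Over all genes, the fold rule called 88 between the lines at DHT-, or 182 with DESeq2, 157 with no filter, 144 with the block, 46 with the comparison's libraries only and with the first columns, 50 with the second columns and 7 with the 8 libraries, and 32 to 47 without replicate 1 or 2 of either DHT- group. Interactions numbered 761, or 1191 with DESeq2, 494 with the second columns, 88 with the 8 libraries, and 465, 489 and 491 without shScramble DHT- replicate 2, shScramble DHT+ replicate 1 and shTMEFF2 DHT- replicate 2. The fold rule called 753 with DHT in shTMEFF2, or 150 with the 8 libraries and 466 without shTMEFF2 DHT+ replicate 3. The 3 libraries a group limit small differences, and MT2A and SLC30A1 had the widest errors.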

Other observations

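Replicate 2 was the highest library of all 4 groups for SLC30A1 and, among the other zinc handling genes, for MT1X, a metallothionein, and SLC30A10. MT1X measured 24.6, 30.6 and 25.6 CPM in shScramble DHT-, 26.7, 33.6 and 24.5 CPM in shScramble DHT+, 24.9, 32.7 and 28.9 CPM in shTMEFF2 DHT- and 24.1, 34.7 and 29.1 CPM in shTMEFF2 DHT+. MT2A was highest in replicate 2 of 3 of the groups. Over all tested genes, 2.13% had replicate 2 highest in every group. The pattern was noticed in the data, and no label ties the replicate number to a transduction, a day or a batch.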
